A study of Homo sapiens with 6 samples.

Results

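The pyruvate dehydrogenase complex (PDC) genes described here are the catalytic and structural subunits PDHA1, PDHB, DLAT, PDHX and DLD, the inhibitory kinases PDK1, PDK2 and PDK3, and the activating phosphatase subunits PDP1 and PDPR. These 10 genes were chosen by name, with earlier results of these data known, and matched to the gene symbols of the deposited table. All 10 were found among its 22933 gene symbols, and all 10 passed the filter used here, a mean FPKM of at least 1 over the groups and a value above 0 in both, as did 12511 symbols in all. FPKM is the number of fragments scaled to transcript length and library size, so that levels of different genes can be set side by side.

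RNA-Seq was performed on PC-3 cells, an established human prostate cancer line from a bone metastasis. All cells carried the rtTA2 transactivator, which switches on the Tight promoter when doxycycline (Dox) is present, and were selected with G418. A second retrovirus gave them either tdTom, a red fluorescent protein under the PGK promoter, or TTP-tdTom, which adds TTP (tristetraprolin) under the Tight promoter. Both groups were sorted for tdTom and received 300 ng/ml Dox for 4 hours. The design therefore compares Dox-treated cells with and without the TTP transgene, 3 samples each. The tdTom group is called the control below. The groups were given the second retrovirus and sorted as separate populations, and every sample received Dox. A difference present before Dox therefore cannot be told apart from one that followed TTP induction. The deposited table holds 1 FPKM value per group and gene, made by the authors from the 3 samples of each. There is therefore no spread between samples behind any value here, and no difference was tested. The study methods state how many read pairs the sequencing aimed for in each sample, but the number reached, and so the fragments behind each value, was not analysed here. In place of a test, genes lower or higher by at least 1.5-fold (0.58 on the log2 scale) were counted and set beside all 12511 expressed symbols. ZFP36, the gene for TTP, had an FPKM of 5.56 in tdTom cells and 5.54 in TTP-tdTom cells, so its row does not set the labelled groups apart, and whether fragments of the transgene were counted there was not analysed. Every direction given below is therefore between the groups as labelled. In bulk RNA, fewer cells that use a gene and less of its RNA per cell cannot be told apart.

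PDC sits in the mitochondrial matrix and turns pyruvate, the end product of glycolysis, into acetyl-CoA for the citric acid cycle. Its E1 enzyme decarboxylates pyruvate with thiamine pyrophosphate, its E2 core passes the acetyl group on lipoic acid arms to coenzyme A, and its E3 enzyme reoxidizes the lipoic acid and makes NADH. Pyruvate dehydrogenase kinases switch the complex off by phosphorylating the E1 alpha subunit, and pyruvate dehydrogenase phosphatases remove the phosphate and switch it on again. TTP is an RNA-binding protein that recognizes AU-rich elements, classically UAUUUAU and its extensions, in the untranslated tail (3′UTR) of mRNAs and brings those mRNAs to degradation.

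Because of this binding preference, the 3′UTR of each gene was read from its GENCODE release 29 transcript and searched on the sense strand for the heptamer UAUUUAU, written TATTTAT in the DNA alphabet. All 10 genes were matched through the RefSeq names that the table gives for them. The heptamer was present in 4 of the 10 genes, DLAT, PDHX, PDP1 and PDHA1, with 10 copies in all, and absent from the 3′UTRs of DLD, PDHB, PDK1, PDK2, PDK3 and PDPR. Among the 11422 expressed symbols with an annotated 3′UTR, 34.7% held at least 1 copy. The sites of the subunit genes follow, each with 10 bases of its 3′UTR on both sides and the heptamer in capitals. They are shown because DLAT and PDHX had the lowest fold changes of the 10 genes, and PDHA1, with the same heptamer, did not.
DLAT, chr11:112062581-112062607: cttaacaagaTATTTATatgttattaa
DLAT, chr11:112062657-112062683: ccagataagtTATTTATaatgggcatt
DLAT, chr11:112063221-112063247: tttgtgtggaTATTTATttaaacaaat
DLAT, chr11:112063824-112063850: tttctattaaTATTTATgtgttttaat
DLAT, chr11:112063854-112063880: cgtttgaaatTATTTATgactacttaa
PDHX, chr11:34995275-34995301: atgaaatgttTATTTATttaaggtgaa
PDHA1, chrX:19360061-19360087: caagatacaaTATTTATtatcaggcaa
The coordinates of these sites are those of the GENCODE annotation on GRCh38, all on the + strand and all in 3′UTR exons. They are not on the build of the deposited table, GRCh37, and no coordinate was carried from one build to the other.

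DLAT held the most copies, 5 in a 3′UTR of 1855 bases, beginning at bases 56, 132, 696, 1299 and 1329 after the stop codon. Of all expressed symbols with a 3′UTR, 1.46% held 5 or more. PDP1, which is encoded on chromosome 8, held 3 copies in 2393 bases, at bases 420, 1721 and 2196, a number reached or passed by 6.56% of symbols. PDHX held 1 copy, at base 113 of 950, and it is part of the nonamer TTATTTATT in the same alphabet, a longer form of the TTP motif found in 9.0% of 3′UTRs. PDHA1 held 1 copy at base 418 of 2052, which is not part of a nonamer. For PDK1 the count depended on the transcript. The RefSeq-matched transcript has a 3′UTR of 1579 bases with 0 copies, whereas the transcript with the longest annotated 3′UTR, 12700 bases, has 1. The genomic span of the table's PDK1 row, 45959 bases, lies between the spans of these transcripts, 43087 and 52701 bases. A match describes the letters in the annotated sequence and does not show that TTP was bound there.

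**Figure D1:**
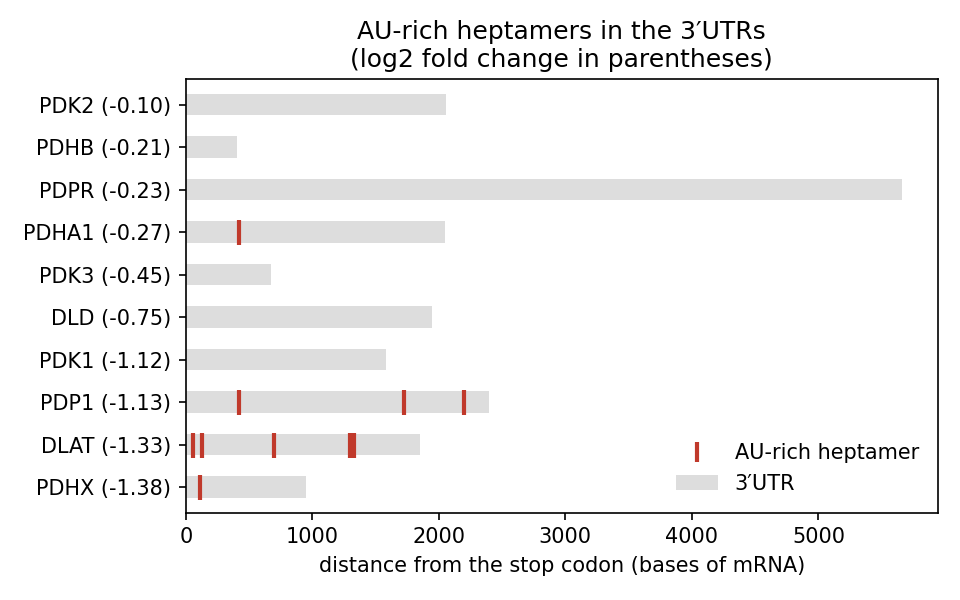
Positions of the AU-rich heptamer (red ticks) in the 3′UTR (grey bars) of each gene, as bases of mRNA after the stop codon, with genes ordered by log2 fold change of TTP-tdTom over tdTom from PDK2 at -0.10 to PDHX at -1.38. DLAT carries 5 ticks, 2 of them nearly touching, PDP1 carries 3, PDHX and PDHA1 carry 1 each, and the other genes carry none.

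Every member of the complex and its regulators, 10 of 10, was less abundant in TTP-tdTom cells than in tdTom cells. The log2 fold changes, given as TTP-tdTom over tdTom throughout, ran from -1.38 for PDHX to -0.10 for PDK2 with a median of -0.60, beside a median of -0.24 over the 12511 expressed symbols, of which 79.9% were lower. Of the 10 genes, 5 were lower by at least 1.5-fold (PDHX, DLAT, PDP1, PDK1 and DLD), beside 22.7% of expressed symbols, and 4 were lower by at least 2-fold (the same without DLD), beside 8.3%. The number of genes higher by 1.5-fold was 0, beside 2.37% of symbols. Because the genes were chosen with earlier results of these data known, these counts describe a chosen set and do not test it. Measured against the median of all expressed symbols, a shift of 0.24, the 10 genes split: PDHB, PDPR and PDK2 then lay 0.032, 0.0074 and 0.14 above it, and PDHA1 lay at -0.034 from it.

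**Figure D2:**
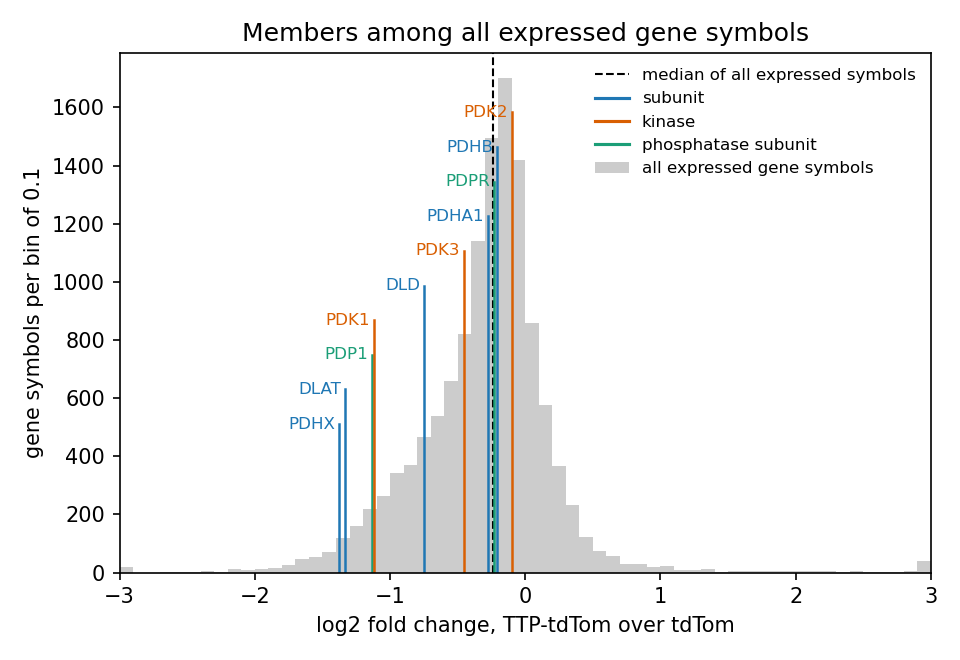
Histogram of the log2 fold change, TTP-tdTom over tdTom, of 12511 expressed gene symbols in bins of 0.1 (values beyond 3 in either direction are stacked in the end bins), with the 10 genes as coloured lines of arbitrary height and the median of all symbols, -0.24, dashed. PDHX, DLAT, PDP1 and PDK1 stand in the left tail, DLD and PDK3 between, and PDHA1, PDPR, PDHB and PDK2 around the dashed line.

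The E1 enzyme is a tetramer of alpha and beta subunits. PDHA1 encodes E1 alpha, the subunit that carries the serines that the kinases phosphorylate. Its FPKM in the authors' table was 25.3 in tdTom cells and 20.9 in TTP-tdTom cells, a log2 fold change of -0.27, so that 82.8% of the control level was left. Its row covers chromosome X of GRCh37 from 19362011 to 19533379 and shares these coordinates with MAP3K15, a kinase gene, at an FPKM of 1.36 and 1.29. PDHB encodes E1 beta. Its FPKM was 41.7 in tdTom cells and 36.1 in TTP-tdTom cells, 86.7% of the control, at chromosome 3 from 58413346 to 58419579. Both E1 genes lay close to the median gene, with 45.9% and 54.2% of expressed symbols having a lower fold change than PDHA1 and PDHB. The ratio of PDHA1 to PDHB was 0.607 in tdTom cells and 0.580 in TTP-tdTom cells.

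DLAT encodes E2, the dihydrolipoamide acetyltransferase that forms the core of the complex, and PDHX encodes the E3-binding protein, an E2 relative in the core that tethers E3. Their fold changes were the lowest of the 10 genes and nearly alike. The FPKM of DLAT was 15.6 in tdTom cells and 6.17 in TTP-tdTom cells, with 39.6% left and a log2 fold change of -1.33. The FPKM of PDHX was 11.2 and 4.30, with 38.5% left and a log2 fold change of -1.38. Only 2.80% of expressed symbols had a lower fold change than DLAT and 2.46% a lower one than PDHX. The ratio of DLAT to PDHX was 1.39 in tdTom cells and 1.43 in TTP-tdTom cells.

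Both core genes lie on chromosome 11 of GRCh37, in rows whose coordinates they share with other genes. The DLAT row covers 111894625 to 111957522 and shares them with TIMM8B, a mitochondrial import chaperone, C11orf57 and PIH1D2. The FPKM of TIMM8B was 157.6 and 147.7, of C11orf57 18.2 and 13.3, and of PIH1D2 2.22 and 1.75 in the tdTom and TTP-tdTom groups. Their log2 fold changes, -0.093, -0.45 and -0.35, were all closer to 0 than that of DLAT. The PDHX row covers 34903843 to 35017675 and shares them with MIR1343, listed at 0 in both groups, and APIP, a gene of methionine salvage. APIP had an FPKM of 15.0 and 5.25, a log2 fold change of -1.52, which was below that of PDHX. The row of PDHX spans 113833 bases, more than the 79993 of its RefSeq-matched transcript, so shared coordinates do not show that genes overlap. How fragments were assigned among genes with shared coordinates is not given in the sources used here. The values of PDHX and APIP may therefore not be separate.

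DLD encodes E3, the dihydrolipoamide dehydrogenase that PDC shares with the 2-oxoglutarate and branched-chain 2-oxoacid dehydrogenase complexes and with the glycine cleavage system. Its FPKM was 18.9 in tdTom cells and 11.3 in TTP-tdTom cells, 59.5% of the control and a log2 fold change of -0.75, at chromosome 7 from 107531107 to 107561826. It thus stood between the core genes and the E1 genes. Measured against the median of all symbols it was at -0.51 and no longer past 1.5-fold.

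Summed over the subunits, the FPKM was 112.6 in tdTom cells and 78.8 in TTP-tdTom cells, but the makeup of that sum differed between the groups. These proportions do not depend on how the groups were scaled to each other. DLAT made up 13.8% of the subunit FPKM in tdTom cells and 7.83% in TTP-tdTom cells, and PDHX 9.93% and 5.46%. PDHB made up 37.0% and 45.8%, and PDHA1 22.5% and 26.6%. The share of DLD was 16.8% and 14.3%. The FPKM of DLAT was 0.373 times that of PDHB in tdTom cells and 0.171 times in TTP-tdTom cells, and that of PDHX was 0.268 and 0.119 times that of PDHB.

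**Figure D3:**
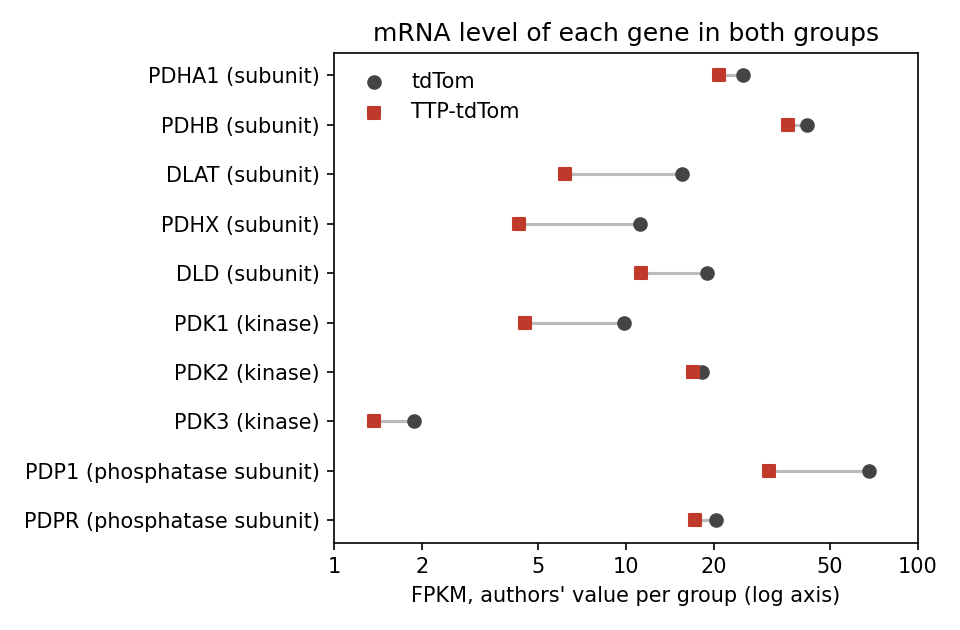
FPKM of each gene in tdTom cells (grey circles) and the TTP-tdTom group (red squares) on a log axis, each symbol being the authors' single value for 3 samples, so that no error bar can be drawn. The distance between the symbols is widest for DLAT and PDHX and narrowest for PDK2 at 18.2 and 17.0.

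The kinases differed among themselves. PDK1, the family member best known as a target of the hypoxia factor HIF-1, had an FPKM of 9.84 in tdTom cells and 4.52 in TTP-tdTom cells. Of its control level 46.0% was left, a log2 fold change of -1.12, and 5.83% of expressed symbols had a lower one. Its row lies on chromosome 2 from 173420779 to 173466737. PDK2, a kinase found in most tissues, had an FPKM of 18.2 and 17.0, with 93.5% left, at chromosome 17 from 48172101 to 48207246. Its log2 fold change of -0.097 was the closest to 0 of the 10 genes and was above that of 69.0% of expressed symbols. PDK2 shares its coordinates with SAMD14, at an FPKM of 0.473 and 0.547. PDK3, at chromosome X from 24483344 to 24568583, was the least abundant of the 10 genes in both groups, with an FPKM of 1.88 and 1.37 and 73.2% left. At an FPKM this low its log2 fold change of -0.45 moved to -0.28 when 1 was added to both values.

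PDK2 was the most abundant kinase mRNA in both groups. It made up 60.8% of the summed kinase FPKM in tdTom cells and 74.3% in TTP-tdTom cells, while the share of PDK1 was 32.9% and 19.7% and that of PDK3 6.28% and 5.99%. The ratio of PDK2 to PDK1 was 1.85 in tdTom cells and 3.77 in TTP-tdTom cells. PDK4, the kinase induced by fasting and fatty acids, is the remaining member of the family. It stood in a pair of rows with the same coordinates, chromosome 7 from 95212809 to 95225925. In the first its FPKM was 2.30 in tdTom cells and listed at 0 in TTP-tdTom cells, and in the second it was 0.284 and 0.530. These rows point in opposite directions at a low level, and the table gives no strand to choose between them, so no fold change is given for PDK4.

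PDP1 encodes the calcium-stimulated catalytic subunit of pyruvate dehydrogenase phosphatase. It was the most abundant of the 10 mRNAs in tdTom cells, at an FPKM of 68.0, and was second to PDHB in TTP-tdTom cells, at 31.0. Of its control level 45.6% was left, a log2 fold change of -1.13, and the difference of 37.0 FPKM was the largest of the 10 genes in absolute terms. PDPR encodes the regulatory subunit, which restrains the phosphatase. Its FPKM was 20.3 in tdTom cells and 17.3 in TTP-tdTom cells, 85.2% of the control, at chromosome 16 from 70147362 to 70196604. A second row of the same symbol and coordinates held an FPKM of 0.417 and 0.642, and adding it moved the log2 fold change of PDPR from -0.23 to -0.21. LOC283922, the PDPR-related pseudogene on the same chromosome from 74364761 to 74402153, had an FPKM of 3.51 and 3.79. Fragments from such near-identical copies can be split between rows, so the PDPR value is uncertain in that respect. PDP2, the other catalytic subunit and not among the 10 genes, had an FPKM of 4.19 and 2.89, a log2 fold change of -0.53.

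The catalytic phosphatase and the kinases act against each other on E1 alpha, and their mRNA levels were set side by side. The summed FPKM of PDK1, PDK2 and PDK3 was 29.9 in tdTom cells and 22.9 in TTP-tdTom cells. The FPKM of PDP1 was 2.27 times that sum in tdTom cells and 1.35 times in TTP-tdTom cells. The ratio of PDP1 to its regulatory partner PDPR was 3.35 and 1.80. The amount of protein and the phosphorylation of E1 alpha were not measured in these data.

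Transcript base composition went with the fold change over the whole table, and the 10 genes differed in it. Among expressed symbols matched to a transcript, the decile with the lowest GC content, up to 38.5%, had a median log2 fold change of -0.76, and the decile with the highest, from 61.7%, had one of -0.097. The GC content of the 10 transcripts ran from 39.3% for DLD to 59.8% for PDK2, against a median of 48.1%. All 5 genes lower by at least 1.5-fold had a GC content of at most 43.5%, and the other genes had at least 44.1%. Within its own GC decile, whose median was -0.56, DLD was unexceptional, with 35.7% of that decile lower still and 48.7% of it past 1.5-fold. PDK1 and PDP1, both with a GC content of 41.0%, had 7.66% and 7.40% of their decile below them, and 36.3% of that decile was past 1.5-fold. The median log2 fold change was -0.43 in that decile and -0.10 in the decile of PDK2. The ratios of PDK2 to PDK1 and of PDP1 to the summed kinases thus compare genes of unlike GC content. DLAT and PDHX, at 43.3% and 43.5%, had 2.61% and 2.26% below them in a decile where 27.1% were past 1.5-fold. PDHB and PDK3, in the same decile as the core genes, had 68.0% and 38.9% below them. The part of base composition in these differences was not tested.

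**Figure D4:**
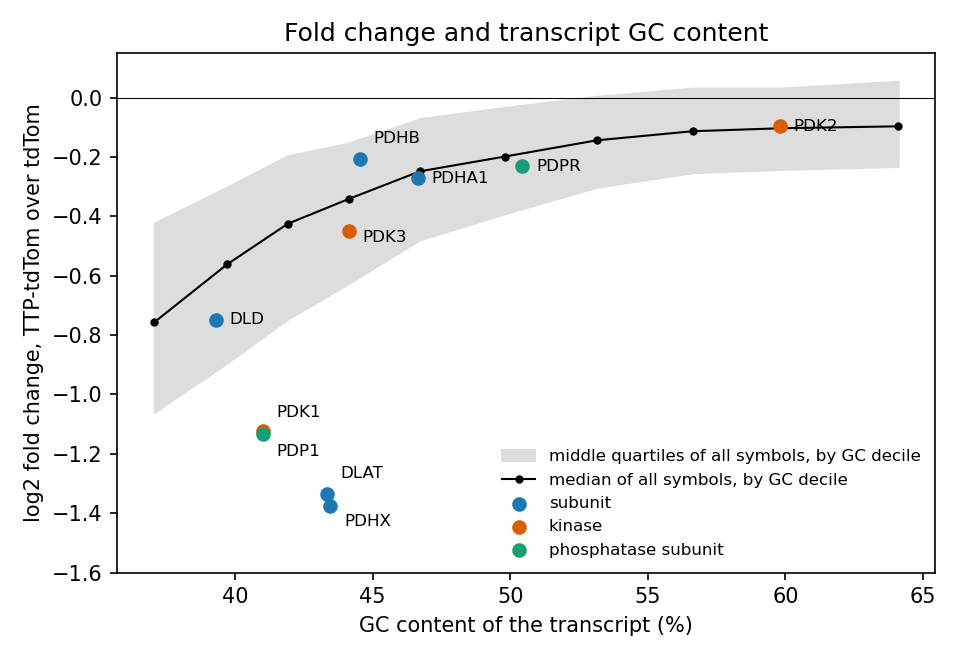
GC content of each gene's transcript in percent against its log2 fold change, TTP-tdTom over tdTom, with the median (black line) and the middle quartiles (grey band) of all expressed symbols in 10 bins of GC content. PDHX, DLAT, PDK1 and PDP1 lie below the grey band, and the other 6 genes lie inside it.

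The number of heptamers also went with the fold change over the whole table, and with base composition. The median log2 fold change was -0.18 over the 7462 expressed symbols with 0 copies, -0.37 with 1, -0.56 with 2, -0.61 with 3 or 4 and -0.66 with 5 or more, while the median GC content went from 51.6% with 0 copies to 39.2% with 5 or more. The share of symbols lower by at least 1.5-fold was 13.9% with 0 copies, 32.8% with 1, 48.2% with 2, 51.9% with 3 or 4 and 55.1% with 5 or more. Of the 4 genes with a heptamer, 3 were lower by at least 1.5-fold, DLAT, PDP1 and PDHX, and PDHA1 was not. Of the 6 without, PDK1 and DLD were lower by at least 1.5-fold. PDHX, with 1 copy, had a fold change as low as DLAT, with 5. The part of the heptamer in these differences was not tested either.

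The related 2-oxoacid dehydrogenases are built on the same plan, and their genes were listed together with their kinase and phosphatase. All 9 were expressed, 7 were lower in TTP-tdTom cells, 2 were lower by at least 1.5-fold beside the same 22.7% of symbols, and the median log2 fold change was -0.29. The 2 were BCKDHB and DBT, the E1 beta and E2 genes of the branched-chain complex, with an FPKM of 3.65 and 1.53 for BCKDHB and of 3.85 and 1.87 for DBT. In the 2-oxoglutarate complex, OGDH (E1) had an FPKM of 20.1 and 19.4 and DLST (E2) one of 20.2 and 20.7, a log2 fold change of 0.037 for DLST. Among the E2 genes the log2 fold change was therefore -1.33 for DLAT, -1.04 for DBT and 0.037 for DLST. OGDHL, an OGDH relative, had the highest of the list, 0.37, at an FPKM of 4.18 and 5.42. Among the E1 beta genes, the log2 fold change was -0.21 for PDHB and -1.25 for BCKDHB. BCKDK, the kinase of the branched-chain complex and a relative of the PDC kinases, was at -0.19, and PPM1K, its phosphatase, was at -0.48.

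Of the genes that supply or use pyruvate, all 11 were expressed and 10 were lower in TTP-tdTom cells, 4 of them by at least 1.5-fold, with a median log2 fold change of -0.34. Over all expressed symbols 79.9% were lower and 22.7% lower by at least 1.5-fold, with a median of -0.24. MPC1, a subunit of the mitochondrial pyruvate carrier listed under its older symbol BRP44L, had an FPKM of 5.64 and 2.94, and its partner MPC2, listed as BRP44, one of 12.9 and 9.37. ME2, the mitochondrial malic enzyme that makes pyruvate from malate, had one of 48.4 and 22.8. LDHA and LDHB, the lactate dehydrogenase subunits, were at log2 fold changes of -0.27 and -0.20 and the pyruvate kinase gene PKM (listed as PKM2) at -0.23, all close to the median of all symbols. PCK2, mitochondrial phosphoenolpyruvate carboxykinase, was the exception, at an FPKM of 7.53 in tdTom cells and 8.79 in TTP-tdTom cells.

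PDC depends on lipoic acid and thiamine. Of 16 listed genes for these cofactors, 14 were expressed, 11 were lower in TTP-tdTom cells and 5 were lower by at least 1.5-fold, with a median log2 fold change of -0.20. The share lower was close to the 79.9% of all expressed symbols and the median was above their -0.24, while 22.7% of them were lower by at least 1.5-fold. FDX1, a mitochondrial ferredoxin, had an FPKM of 6.10 and 2.98. LIAS, lipoic acid synthase, had one of 3.95 and 4.05, and LIPT1, a lipoyl transferase, one of 5.63 and 7.31. Of the listed deacylases and transcription regulators, 4 of 6 were expressed and 1, HIF1A, was lower by at least 1.5-fold, a share near the 22.7% of all expressed symbols, with an FPKM of 550.2 in tdTom cells and 204.2 in TTP-tdTom cells. HIF1A encodes the oxygen-regulated subunit of HIF-1. Its log2 fold change was -1.43, beside -1.12 for PDK1. SIRT3, a mitochondrial deacetylase, was at -0.063.

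**Figure D5:**
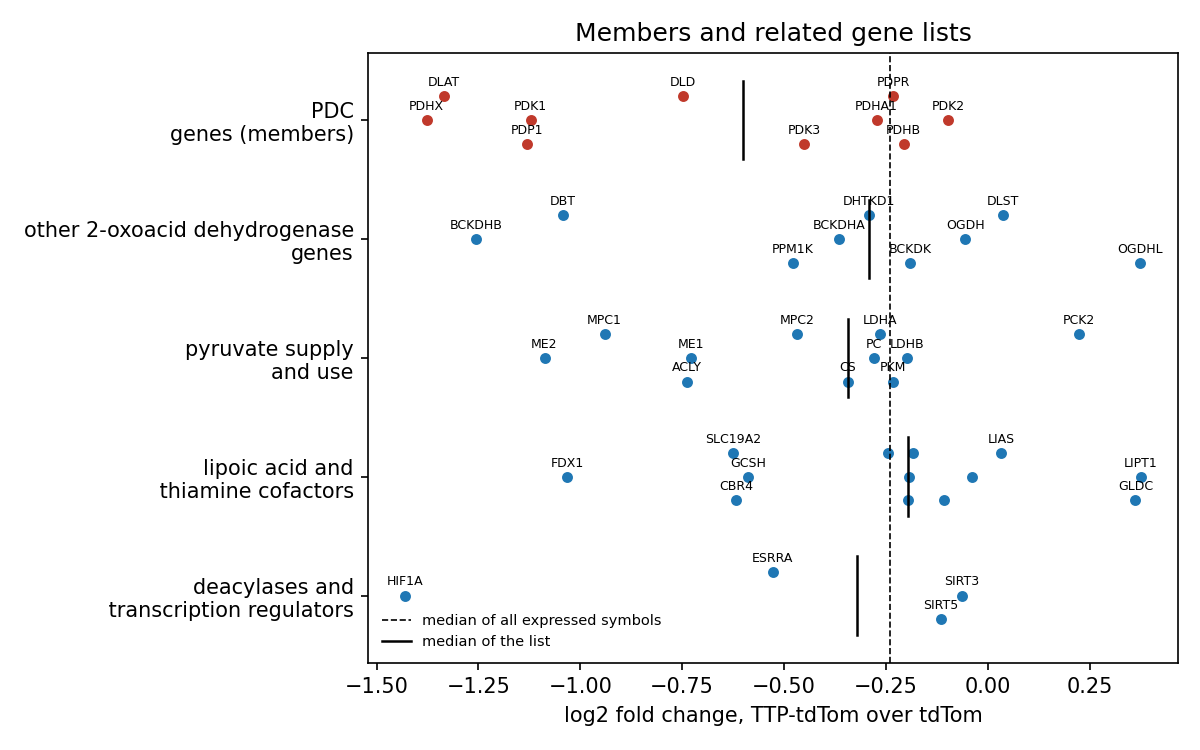
Log2 fold change, TTP-tdTom over tdTom, of the 10 PDC genes (red) and of the expressed genes of 4 related lists (blue), each dot being a gene and 1 cofactor gene not being drawn, with the median of each list (solid bar) and of all expressed symbols (dashed line, -0.24). Vertical offsets within a list only separate the dots, and 6 cofactor genes between -0.25 and -0.038 are drawn without a name; the PDC genes have the lowest list median, -0.60.

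The labelled cell type was checked against markers. Of 4 epithelial markers, KRT8, KRT18 and EPCAM had an FPKM between 15.1 and 98.2 in both groups, and CDH1 was at 0.119 and 0.390. Of the prostate markers, KLK3 was at 1.12 and 0.681 and TMPRSS2 at 1.78 and 2.53. Of 4 markers of other cells, PTPRC and PECAM1 were under 1 in both groups, ALB was at 1.98 and 1.12 and COL1A1 at 4.34 and 4.56.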

How the data were processed

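Strand-specific libraries were made from RNA of PC-3 + rtTA2 cells with the NuGen Ovation Encore Complete kit and sequenced as 75-base pairs. Per the labels and methods, reads were aligned to Hs37D5 (GRCh37 with decoy sequence) with TopHat2 2.0.13 and assembled and compared with Cufflinks 2.2.1. The FPKM values deposited by the authors are 1 per group and locus. The same table holds the authors' fold changes, test statistics, p-values and calls, which were not used. The study methods give the read pairs aimed for per sample, and the depth reached cannot be read from FPKM values.

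A symbol at several of the 406165 rows was represented by the row with the most RefSeq names, then the highest FPKM. Log2 fold changes are ratios of the group FPKM values without a pseudocount. Starts are counted from 1. By rule, the genes named are the 10 members, ZFP36, markers and up to 4 examples of each related list (the highest, the lowest and others by role). Further examples and the neighbours of members were chosen after their values were seen. A few genes of these lists are not reported here. Members and lists were chosen with earlier results of these data known. Transcript features came from GENCODE release 29, matched by RefSeq name or else by symbol, taking the transcript with the longest 3′UTR; 91.3% of expressed symbols had one. The alternatives were pseudocounts of 0.1 and 1, other ways to pick the row, 2 rescalings, a 2-fold limit and other FPKM filters. Python 3.11.15, numpy 2.4.6, pandas 2.3.3 and matplotlib 3.10.9 were used.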

Additional observations from a re-analysis of the deposited data

How the results depend on the processing

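No paired analysis was possible because the table holds 1 value per group, and for the same reason no replicate could be left out. The median log2 fold change of the 10 genes, -0.60, was -0.36 when centred on the median of all expressed symbols, the setting that moved it most, by construction a shift of 0.24. Centring put PDHB, PDPR and PDK2 above 0 and left 4 of the 10 genes lower by at least 1.5-fold, without DLD, beside 13.3% of expressed symbols. Under the pseudocounts, the other choices of row and the same FPKM sum over loci with a symbol, the median lay between -0.60 and -0.49, all 10 genes stayed below 0 and 5 stayed lower by at least 1.5-fold. Of 60 recomputed values of single genes, 59 stayed on the same side of 1.5-fold, DLD after centring being the exception. Many of these could not move. Picking the row with the highest FPKM changed no member, and summing the rows of a symbol changed only PDPR. The rescalings shifted all genes by the same amount. The share of all symbols lower by at least 1.5-fold was 19.97% without a filter and 24.2% at a mean FPKM of at least 10. Only the read pairs aimed for are stated, not the number reached, so no counting interval is given for low values such as those of PDK3 and PDK4.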
